A study of Mus musculus with 9 samples.

Results

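Sorting was for microglia, yet transcripts of neuronal genes were counted in every library. The 30 genes followed here encode parts of the synapse, the neuronal cytoskeleton and neuronal RNA regulation: Syt1, Snap25, Meg3, Hpcal4, Rbfox3, Nrgn, Camk2a, Camk2b, Syp, Stmn2, Stmn3, Gria1, Gria2, Grin1, Grin2b, Gad1, Slc17a7, Nefl, Nefm, Map2, Tubb3, Snhg11, Thy1, Cplx1, Cplx2, Syn1, Syn2, Vsnl1, Olfm1 and Nrxn3. They were chosen by symbol, with their levels over time in these same libraries already known, so their own differences between days are given as a description. All 30 symbols had 1 row each among the 49671 genes of the table, and all 30 passed the filter of at least 1 CPM in at least 3 libraries that left 15041 genes for testing. CPM is the number of reads of a gene per 1000000 reads counted to genes.

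The libraries were made from mRNA of microglia, macrophages that live in brain tissue, collected 7, 30 and 90 days after a controlled cortical impact, with 3 libraries per day. All animals were male C57BL/6 (CD45.2) mice that at 8 weeks of age received 1000 cGy of irradiation with the head shielded, then busulfan at 30 mg/kg, and then CD45.1 bone marrow from B6.SJL-Ptprca Pepcb/BoyJ donors. They were injured at 16 weeks with a 3 mm tip to a depth of 2 mm, and CD45.2 microglia were sorted, so that blood cells of donor origin carried the other CD45 form. Injury, transplant and both conditioning agents were shared by every group, and no uninjured or sham group was used here. Libraries were named by day and replicate number, 2, 3 and 4 at days 7 and 30, and 1, 3 and 4 at day 90.

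A neuron sends its signal by fusing transmitter-filled vesicles with the membrane of its axon terminal. Synaptotagmin senses the calcium that enters, the SNARE protein SNAP-25 drives fusion, complexins clamp and trigger it, and synapsins tether the reserve vesicles. Across the cleft, glutamate receptors of the AMPA and NMDA types and the kinase CaMKII shape the response. Many of these mRNAs are carried into dendrites and axons, away from the cell body, and microglia contact and engulf synaptic material.

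The sequences before the transcription starts are shown for 6 genes: Syt1, Hpcal4, Meg3 and Snhg11, whose levels moved most nearly with the rest, and Syn1 and Gria2, which hold the neuronal silencer element searched for. Each is the stretch of 250 bases before a RefSeq start, 5′ to 3′ on the strand of the gene, from the RefSeq promoter table on GRCm38.p6 (mm10). These starts differ for some genes from the gene bounds of the GENCODE M21 annotation given further on. By those bounds the Hpcal4 window lies inside the gene. The windows of Snhg11, Syn1 and, by a few bases, Syt1 reach into it. That table held 29 windows for 22 of the 30 genes. Capitals mark matches to the 3 motifs described after them; a sequence with no capitals had none.
Syt1, chr10:109010976-109011225, minus strand: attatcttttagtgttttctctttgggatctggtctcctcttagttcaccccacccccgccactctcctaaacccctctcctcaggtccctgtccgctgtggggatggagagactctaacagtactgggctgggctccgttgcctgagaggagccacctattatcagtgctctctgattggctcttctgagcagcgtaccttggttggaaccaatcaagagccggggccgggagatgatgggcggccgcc
Hpcal4, chr4:123183254-123183503, plus strand: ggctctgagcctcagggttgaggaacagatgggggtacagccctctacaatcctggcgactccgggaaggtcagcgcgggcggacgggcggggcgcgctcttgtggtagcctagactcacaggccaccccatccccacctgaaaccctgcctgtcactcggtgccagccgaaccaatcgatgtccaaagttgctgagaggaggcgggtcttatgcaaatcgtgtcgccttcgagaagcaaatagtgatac
Meg3, chr12:109540746-109540995, plus strand: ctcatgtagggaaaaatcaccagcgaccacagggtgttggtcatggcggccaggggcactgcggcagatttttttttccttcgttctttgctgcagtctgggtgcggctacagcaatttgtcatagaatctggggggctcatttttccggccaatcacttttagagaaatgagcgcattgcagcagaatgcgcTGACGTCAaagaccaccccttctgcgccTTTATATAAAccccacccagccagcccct
Snhg11, chr2:158375463-158375712, plus strand: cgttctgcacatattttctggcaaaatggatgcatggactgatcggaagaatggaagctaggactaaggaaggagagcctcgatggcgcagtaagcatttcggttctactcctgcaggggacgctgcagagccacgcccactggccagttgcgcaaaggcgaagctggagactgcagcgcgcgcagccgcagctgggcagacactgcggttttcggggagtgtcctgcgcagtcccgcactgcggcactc
Syn1, chrX:20920919-20921168, minus strand: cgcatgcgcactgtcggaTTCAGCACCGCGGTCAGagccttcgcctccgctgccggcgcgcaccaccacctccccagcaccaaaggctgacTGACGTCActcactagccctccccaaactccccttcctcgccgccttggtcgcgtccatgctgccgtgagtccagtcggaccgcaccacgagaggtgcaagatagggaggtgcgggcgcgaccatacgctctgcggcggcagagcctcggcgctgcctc
Gria2, chr3:80802836-80803085, minus strand: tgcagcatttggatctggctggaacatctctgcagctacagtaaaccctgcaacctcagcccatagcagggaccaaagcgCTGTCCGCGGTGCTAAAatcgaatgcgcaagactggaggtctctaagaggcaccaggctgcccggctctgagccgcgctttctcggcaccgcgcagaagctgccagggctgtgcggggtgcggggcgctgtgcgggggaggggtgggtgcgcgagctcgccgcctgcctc

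RE1, the element bound by the repressor REST that keeps neuronal genes silent in other cells, was searched on both strands as TCAGCACC, a gap of 2 free bases and GGACAG, with up to 2 mismatches among the 14 letters. It was found in 0.381% of 32817 windows of this length, and in 2 of the 29 windows of these genes. The matches began 232 bases before the Syn1 start and, on the opposite strand, 170 bases before the Gria2 start, each with 1 mismatch. The cyclic AMP response element TGACGTCA lay 57 bases before the Meg3 start and 159 bases before the Syn1 start, and in 1.55% of all windows. TATAAA, the TATA box, lay 25 bases before the Meg3 start, where it overlaps a copy on the other strand that begins 29 bases before the start. It was also matched for Gad1, and in 12.4% of all windows. A match of letters describes these windows and was not tied to any level below.

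Between 7210985 and 12965926 reads were counted to genes in each library, and 14039 to 17334 genes had at least 1 read. Day 90 replicate 1 had the fewest genes and stood apart in the summed markers of ependyma and choroid plexus, the cells that line the ventricles and make cerebrospinal fluid. The 10 such markers summed to 25372 CPM there and to 7277 to 10570 CPM in the other 8 libraries, nearly all of it Ttr, the thyroid hormone carrier made by choroid plexus. Foxj1, the ependymal factor in that list, was not highest there, at 56.0 CPM against 75.5 CPM in day 7 replicate 2. Microglial identity was present throughout: the 14 microglial markers summed to 24935, 21856 and 25614 CPM at day 7, 27573, 27149.9 and 26484 CPM at day 30, and 20041, 26074 and 29224 CPM at day 90.

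Together the 30 transcripts were a small and variable share of each library, largest at day 30. They summed to 1463, 1722 and 1714 CPM at day 7, 2099.7, 2945 and 3962 CPM at day 30, and 1372, 1592 and 2449 CPM at day 90. All 3 day 30 libraries lay above the day 7 libraries, while day 90 replicate 4 lay above day 30 replicate 2. As means the sums were 1633 ± 147, 3002 ± 933 and 1804 ± 569 CPM (SD, n = 3), 1.84-fold higher at day 30 than at day 7 and 1.66-fold higher than at day 90. The latter was 1.49-fold without day 90 replicate 1, and the 2 ratios were 1.54 and 1.40 without day 30 replicate 4, the highest library. In reads, the sum ran from 12419 in day 7 replicate 3 to 45226 in day 30 replicate 4, and the share of all reads counted to genes ran from 0.137% in day 90 replicate 1 to 0.396%. In bulk samples fewer cells of a type and less RNA per cell cannot be told apart, and the source of these transcripts was not tested.

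**Figure D1:**
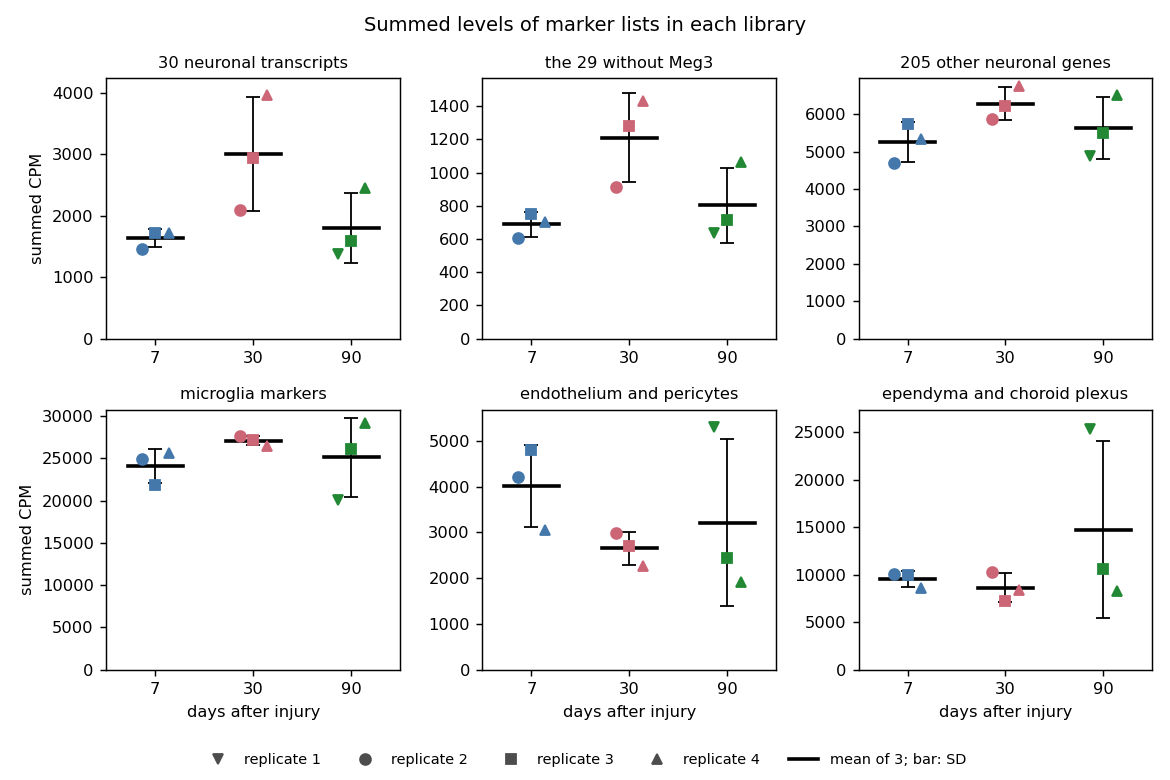
Summed CPM of 6 gene lists in each of the 9 libraries, by days after injury. Points are libraries with the replicate number as symbol, thick lines are means of 3 and bars are SD. The 30 neuronal transcripts sit at 2100 to 3962 CPM at day 30 and at 1372 to 2449 CPM at the other days, and day 90 replicate 1 is highest in the plots of endothelium and of ependyma.

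Most of the sum came from Meg3, a maternally expressed long noncoding RNA that is retained in nuclei and abundant in neurons. Meg3 (ENSMUSG00000021268, chromosome 12, 109541001 to 109571726, plus strand) measured 856, 969 and 1009.6 CPM at day 7, 1184, 1663 and 2528 CPM at day 30, and 736, 876 and 1387 CPM at day 90. It made up 53.6% to 63.8% of the sum in each library, so its share moved little while the sum itself moved widely. The 3 day 30 libraries lay above all day 7 libraries, but day 30 replicate 2, at 1184 CPM, lay below day 90 replicate 4. The means were 945 ± 79.5, 1792 ± 681 and 999.8 ± 343 CPM. Without Meg3 the other 29 summed to 688 ± 74.4, 1211 ± 267 and 804 ± 226 CPM, 1.76-fold higher at day 30 than at day 7 and 1.51-fold higher than at day 90.

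Counted by their means, 26 of the 30 transcripts were highest at day 30, against 33.5% of all genes tested. The other 4 were Rbfox3 and Vsnl1, highest at day 90, and Syp and Cplx2, highest at day 7. By medians of the 3 libraries the number was 21, and without day 30 replicate 4 it was also 21. Few transcripts separated the libraries cleanly. In 2 of the 30, Syt1 and Hpcal4, all 3 day 30 libraries lay above the other 6, as in 1.42% of genes tested, and in 0 were all 3 below (0.751%). In 11 of the 30 they lay above the 3 day 7 libraries (6.85% of genes tested), and in 3 above the 3 day 90 libraries (6.18%). Day 90 lay wholly below day 7 in 0 of the 30 (6.27%). The genes were chosen with these levels known, so the distance from the background shares carries no further reading.

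In the limma fit over all 15041 genes with Benjamini-Hochberg adjustment, no gene passed the threshold of 0.05 between day 30 and day 7 (0.0% called), and hence 0 of the 30. Without day 90 replicate 1, which enters that fit only through the shared spread, limma called 8 genes, and 1 of the 30, Hpcal4, was among them. Unadjusted, 536 genes were higher (3.56%) and 403 lower (2.68%) at day 30, and 9 of the 30 were among the higher and 0 among the lower. On whole reads recovered from the CPM, edgeR called 0 genes and DESeq2 called 30, of which Hpcal4 was 1. Between day 90 and day 7 limma called 37 genes (0.246%), 6 of them higher at day 90 (0.0399%) and 31 lower (0.206%), and between day 90 and day 30 it called 8 (0.0532%), with 0 of the 30 in either. Without day 90 replicate 4 the latter count was 18, and Nrxn3 was among them; without day 90 replicate 1 the former was 62. Unadjusted, 2 of the 30 were higher (3.48% of genes) and 0 lower (4.25%) at day 90 than at day 7, and 0 were higher (1.59%) and 7 lower (3.44%) at day 90 than at day 30. The 7 became 3 without day 90 replicate 1, and leaving out day 30 replicate 3 gave 4, as did edgeR and DESeq2. In place of the 2 higher at day 90 than at day 7, leaving out day 90 replicate 1 gave 4 and its replicate 3 gave 3. Leaving out day 7 replicate 2 gave 1 higher and 1 lower, and day 90 replicate 4 gave 1 higher and 3 lower. Against the mean of days 7 and 90 together, limma called 0 genes at day 30 (0.0%), edgeR 0 and DESeq2 10. Unadjusted, 448 genes were higher (2.98%) and 280 lower (1.86%), among them 10 and 0 of the 30, the 10 becoming 6 without day 30 replicate 4. The comparisons share libraries, so the 3 sets of differences are not separate evidence.

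The log2 difference on the log2(CPM + 1) scale, in which 1 CPM was added before taking logarithms, was above 0 for all 30 at day 30 against the mean of the other days, with a median of +0.72. Over all genes tested the median was +0.06, and 55.1% were above 0. For day 30 against day 7 the median over the 30 was +0.78 with 29 above 0 (all genes +0.04, 53.2% above 0). For day 90 against day 30 it was -0.53 with 3 above 0 (all genes -0.06, 45.0% above 0), and for day 90 against day 7 it was +0.29 with 21 above 0 (all genes -0.02, 48.4%). That last median moved with single libraries: without day 90 replicate 4 it was +0.01 with 15 above 0, without day 7 replicate 2 it was +0.18 with 17 above 0, and without day 90 replicate 1 it was +0.39 with 25 above 0. For day 90 against day 30 the median was -0.44 with 4 above 0 without day 90 replicate 1, and also -0.44 with 6 above 0 without day 30 replicate 4. Leaving out day 30 replicate 4, the median of day 30 against the mean of the other days was +0.56, with 27 above 0. Without day 90 replicate 1 it was +0.63, with 29 above 0.

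**Figure D2:**
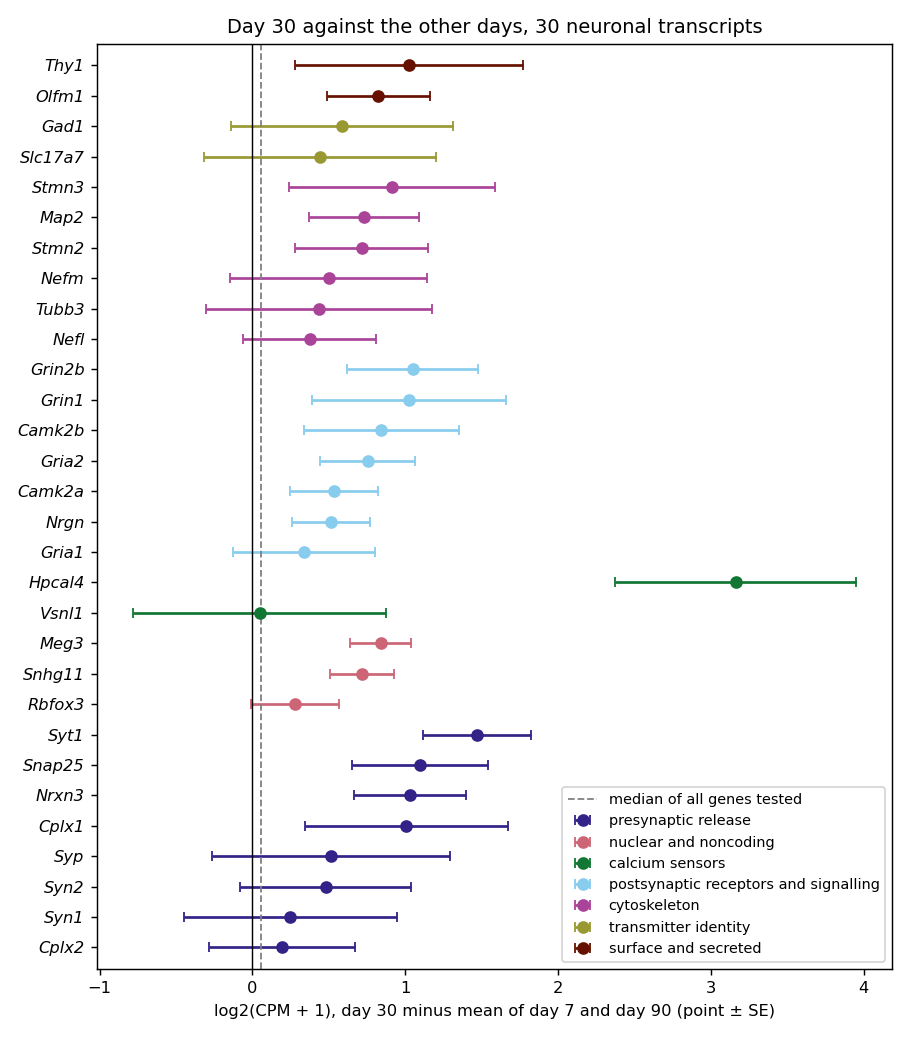
Difference in log2(CPM + 1) at day 30 from the mean of days 7 and 90 for the 30 transcripts, grouped by role. Points are fitted differences and bars are their standard errors. All 30 points lie above 0, from Vsnl1 at +0.05 to Hpcal4 at +3.16, and the dashed line at +0.06 is the median of all genes tested.

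Among the genes of vesicle release, Syt1 showed the clearest day 30 level. Syt1, the calcium sensor of fast transmitter release (ENSMUSG00000035864, chromosome 10, 108497650 to 109010982, minus strand), measured 22.9, 16.5 and 26.4 CPM at day 7, 55.0, 76.4 and 81.5 CPM at day 30, and 15.4, 26.7 and 52.9 CPM at day 90. The lowest day 30 value, 55.0 CPM, lay just above day 90 replicate 4 at 52.9 CPM. Its difference was +1.47 ± 0.36 (SE) against the other days, +1.65 ± 0.41 for day 30 against day 7 and -1.29 ± 0.41 for day 90 against day 30. The reads behind these values ran from 119 to 930 per library.

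Snap25, the membrane SNARE that pairs with syntaxin and synaptobrevin, moved with single libraries more than with days. It measured 23.9, 44.5 and 46.8 CPM at day 7, 40.3, 53.4 and 96.6 CPM at day 30, and 5.09, 24.1 and 59.9 CPM at day 90. Day 90 replicate 1 was lowest and day 30 replicate 4 highest, and the 3 days overlapped. Nrxn3, a presynaptic adhesion protein that binds neuroligins, measured 30.3, 64.5 and 42.0 CPM at day 7, 57.9, 90.2 and 56.9 CPM at day 30, and 20.3, 11.5 and 56.1 CPM at day 90. All day 30 libraries were above all day 90 libraries, day 90 replicate 4 falling only just short of the lowest, and the difference of day 90 from day 30 was -1.45 ± 0.42.

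The complexins, which hold the fusion machinery ready, differed from each other. Cplx1 measured 6.00, 11.2 and 4.15 CPM at day 7, 9.18, 15.8 and 31.0 CPM at day 30, and 1.43, 21.0 and 18.2 CPM at day 90. Cplx2 measured 23.3, 36.3 and 10.8 CPM at day 7, 18.1, 28.9 and 17.9 CPM at day 30, and 6.69, 21.0 and 27.7 CPM at day 90. Cplx1 was highest in day 30 replicate 4 and Cplx2 in day 7 replicate 3, and within every day the libraries of both genes overlapped those of another day. The difference of day 30 from the other days was +1.01 ± 0.67 for Cplx1 and +0.19 ± 0.48 for Cplx2, which was below 0 in 4 alternatives, 3 of which each left out a single library. The synapsin genes Syn1 and Syn2, whose products bind vesicles to actin, ranged from 2.66 to 11.7 CPM and from 5.80 to 25.2 CPM with no order by day. Syp, an integral vesicle membrane protein, had 0 reads in day 90 replicate 1 and 14.5 CPM in replicate 4 of the same day.

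On the receiving side, glutamate receptor genes stood higher at day 30 in means. Gria2, the AMPA receptor subunit that sets calcium permeability, measured 22.7, 44.7 and 40.8 CPM at day 7, 42.7, 99.0 and 79.6 CPM at day 30, and 52.1, 38.6 and 55.7 CPM at day 90. Day 30 replicates 3 and 4 were above all other libraries, while replicate 2, at 42.7 CPM, lay within the range of days 7 and 90. Grin2b, a glutamate-binding NMDA receptor subunit, measured 5.90, 9.98 and 27.8 CPM at day 7, 32.9, 36.9 and 55.0 CPM at day 30, and 37.3, 19.2 and 38.2 CPM at day 90. Its day 7 replicates 2 and 3 were the lowest of all 9 libraries, and its levels at days 30 and 90 overlapped. The fitted differences of day 30 from day 7 were +0.99 ± 0.36 for Gria2 and +1.68 ± 0.49 for Grin2b, and those of day 90 from day 7 were +0.47 ± 0.36 and +1.27 ± 0.49. The AMPA subunit gene Gria1 and the obligatory NMDA subunit gene Grin1 had means of 15.9 ± 6.29, 26.0 ± 13.7 and 23.0 ± 8.74 CPM and 6.68 ± 2.78, 15.3 ± 7.22 and 6.76 ± 2.54 CPM, with overlapping days.

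Downstream of these receptors act CaMKII, the kinase of synaptic plasticity, with 2 of its subunit genes among the 30, and neurogranin, which binds calmodulin in dendrites. Camk2a, whose mRNA is carried into dendrites, measured 43.2, 41.5 and 41.0 CPM at day 7, 59.1, 51.5 and 90.5 CPM at day 30, and 35.9, 45.4 and 65.4 CPM at day 90. The day 7 libraries were within 41.0 to 43.2 CPM, the day 30 libraries were all above them, and day 90 overlapped both. Nrgn measured 86.1, 93.5 and 102 CPM at day 7, 91.5, 132 and 158 CPM at day 30, and 47.1, 98.1 and 111 CPM at day 90. Its day 30 replicate 2 lay within the day 7 range, and day 90 replicate 1 was the lowest library. Camk2b had means of 17.5 ± 3.26, 26.8 ± 10.2 and 14.01 ± 10.9 CPM and was lowest in day 90 replicate 1, at 3.57 CPM. On the fitted scale, day 30 differed from the mean of the other days by +0.54 ± 0.29 for Camk2a, +0.51 ± 0.25 for Nrgn and +0.84 ± 0.51 for Camk2b.

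The 2 calcium sensor genes of the visinin-like family behaved unlike each other. Hpcal4 (ENSMUSG00000046093, chromosome 4, 123183227 to 123194701, plus strand) measured 0, 0 and 0 CPM at day 7, 11.1, 20.8 and 14.5 CPM at day 30, and 0, 2.18 and 9.22 CPM at day 90. All 3 day 7 libraries were at 0 reads, and so was day 90 replicate 1, while the 3 day 30 libraries held 144, 232 and 166 reads. With 542 reads over the day 30 libraries and 0 of 28354379 reads at day 7, its level was at least 144-fold higher at day 30 when day 7 is set to a floor of 3 reads over its 3 libraries. Day 90 held 132 reads, 109 of them in replicate 4, at least 37.2-fold above that floor. These bounds cover counting error only.

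Vsnl1, visinin-like protein 1, measured 3.87, 0.139 and 1.33 CPM at day 7, 0, 16.8 and 12.0 CPM at day 30, and 13.6, 8.07 and 24.4 CPM at day 90. It had 0 reads among the 12965926 of day 30 replicate 2, the deepest library, where a count of 0 allows a level of up to 0.231 CPM (3 reads), and 187 reads in day 30 replicate 3. Its day 90 libraries were all above its day 7 libraries, as for 4 of the 30 (5.4% of genes tested), the others being Rbfox3, Stmn2 and Olfm1. The difference of day 30 from the mean of the other days was +0.05 ± 0.83, and its sign turned in 5 alternatives. The spread between libraries of the same day, as an SD of log2(CPM + 1), was 1.51 for Vsnl1, the widest of the 30, against 0.25 for Rbfox3, the narrowest. The median over the 30 was 0.72 and over all genes tested 0.69, and it was 0.56 over the 11502 genes whose mean CPM lay in the range of the 30.

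**Figure D3:**
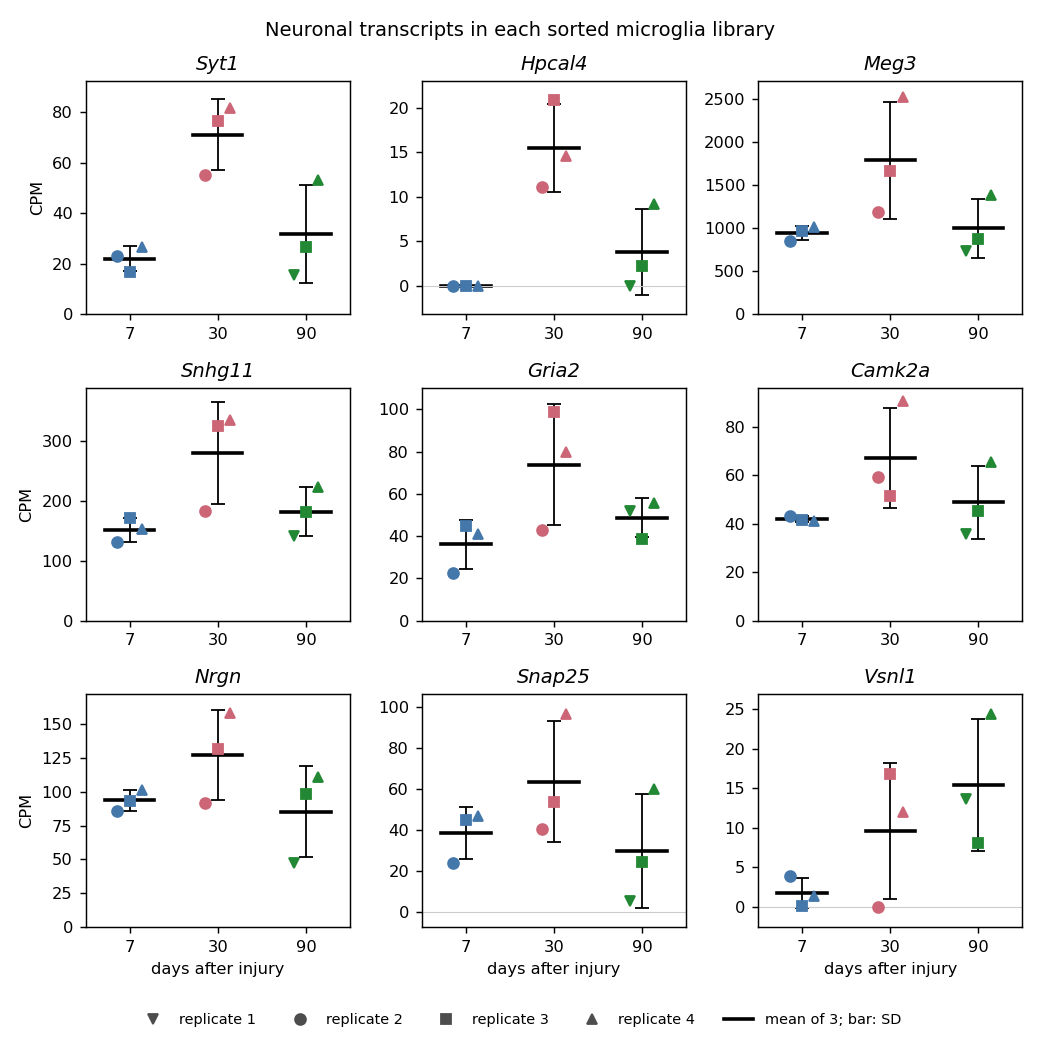
CPM of 9 of the transcripts in each library by days after injury, on linear axes of different range. Points are libraries with the replicate number as symbol, thick lines are means of 3 and bars are SD. Syt1 and Hpcal4 have all day 30 libraries above the rest, Hpcal4 is at 0 in every day 7 library, and Vsnl1 is at 0 in day 30 replicate 2.

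Cytoskeletal genes were led by Map2, the microtubule protein of dendrites, and Stmn2, a tubulin-binding protein of growing axons. Map2 measured 25.5, 14.6 and 21.3 CPM at day 7, 43.3, 32.6 and 52.5 CPM at day 30, and 22.5, 31.4 and 42.3 CPM at day 90. Its day 30 libraries were above its day 7 libraries and overlapped day 90. Stmn2 measured 15.3, 8.04 and 12.6 CPM at day 7, 25.1, 22.2 and 32.6 CPM at day 30, and 21.1, 22.7 and 19.3 CPM at day 90. Both day 30 and day 90 lay wholly above day 7, and the difference of day 30 from day 7 was +1.12 ± 0.50 for Stmn2 and +1.04 ± 0.41 for Map2. The related Stmn3 had means of 7.22 ± 4.97, 13.8 ± 7.31 and 7.80 ± 6.65 CPM with overlapping days.

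The neurofilament genes, which encode the axon's intermediate filaments, showed little of this. Nefl, the light chain, measured 17.1, 16.9 and 25.4 CPM at day 7, 20.2, 27.7 and 21.1 CPM at day 30, and 13.7, 12.1 and 22.1 CPM at day 90. Nefm, the medium chain, measured 6.71, 19.6 and 7.78 CPM at day 7, 14.04, 9.42 and 19.8 CPM at day 30, and 20.3, 1.42 and 17.5 CPM at day 90. Nefm spanned 1.42 to 20.3 CPM within day 90 alone, and for both genes the days overlapped. The fitted difference of day 30 from the other days was +0.37 ± 0.43 for Nefl and +0.50 ± 0.64 for Nefm, which was just below 0 without day 90 replicate 3. Tubb3, the neuronal beta-tubulin, had 16 to 86 reads per library, with means of 2.81 ± 2.01, 4.89 ± 1.63 and 4.35 ± 1.91 CPM.

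Snhg11 and Rbfox3, grouped with Meg3 as noncoding RNA or as the gene of a nuclear protein, had different patterns. Snhg11, a small nucleolar RNA host gene of neurons (ENSMUSG00000044349, chromosome 2, 158375638 to 158386145, plus strand, annotated as protein coding in GENCODE M21), measured 131, 172 and 154 CPM at day 7, 183, 325 and 335 CPM at day 30, and 141, 182 and 223 CPM at day 90. Day 30 replicates 3 and 4 stood above all other libraries, and replicate 2 lay between day 90 replicates 3 and 4. Its difference from the mean of the other days was +0.72 ± 0.21, beside +0.84 ± 0.20 for Meg3. Rbfox3, which encodes the splicing factor and neuronal nuclear antigen NeuN, measured 39.3, 40.1 and 30.9 CPM at day 7, 52.4, 51.8 and 59.8 CPM at day 30, and 69.9, 42.2 and 56.0 CPM at day 90. It was highest in day 90 replicate 1, and its days 30 and 90 differed by +0.01 ± 0.33.

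Markers of transmitter type were scarce. Slc17a7, the vesicular glutamate transporter of cortical excitatory neurons, had 6 to 102 reads per library and means of 2.68 ± 1.85, 4.83 ± 3.60 and 3.49 ± 1.03 CPM. Gad1, the GABA-synthesising enzyme of inhibitory neurons, had 3 to 187 reads and means of 4.27 ± 3.91, 9.60 ± 6.22 and 9.14 ± 3.60 CPM. In both genes the 3 days overlapped, and 1 library, day 30 replicate 4, was highest. Of the surface and secreted proteins, Olfm1, olfactomedin 1, measured 22.0, 22.7 and 24.8 CPM at day 7, 50.7, 63.4 and 32.3 CPM at day 30, and 26.9, 32.7 and 29.1 CPM at day 90. Its day 7 libraries lay between 22.0 and 24.8 CPM, all below every day 30 and day 90 library, and the difference of day 30 from day 7 was +0.99 ± 0.39. Thy1, a surface glycoprotein of neurons that T cells of mice also carry, went from 0.139 CPM in day 7 replicate 3, a single read, to 12.9 CPM in day 30 replicate 2.

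Many of the transcripts varied together over libraries, in part also with the day means removed. Day 30 replicate 4 was the highest library for 17 of the 30, day 30 replicate 3 for 5, and day 90 replicate 1 the lowest for 10. No share over all genes tested is given beside these counts, so they are not read as particular to the 30. Day 90 replicate 1 also had the fewest genes with a read, 14039. Over the 435 pairs of transcripts the median Pearson correlation across the 9 libraries was 0.38, and 86.7% of pairs were above 0. With each day's mean removed, the median was 0.20 and 67.6% were above 0. Each transcript was also set against the mean z-score of the other 29. Meg3 (r = 0.96), Syt1 (0.94), Snhg11 (0.94), Hpcal4 (0.92) and Camk2a (0.89) followed the rest most closely, and Syn2 (0.21), Gad1 (0.24) and Cplx2 (0.25) least. With each day's mean removed, r was below 0 for Olfm1 (-0.34), Thy1 (-0.28), Tubb3 (-0.28) and Syn2 (-0.14). The same held for Gad1 (-0.12), Rbfox3 (-0.10) and Stmn2 (-0.09), and r was above 0 for the other transcripts. These are descriptions over 9 libraries that share their scaling to a fixed total. The genes were chosen with their levels over time known, and no share over pairs of other genes is given beside them.

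**Figure D4:**
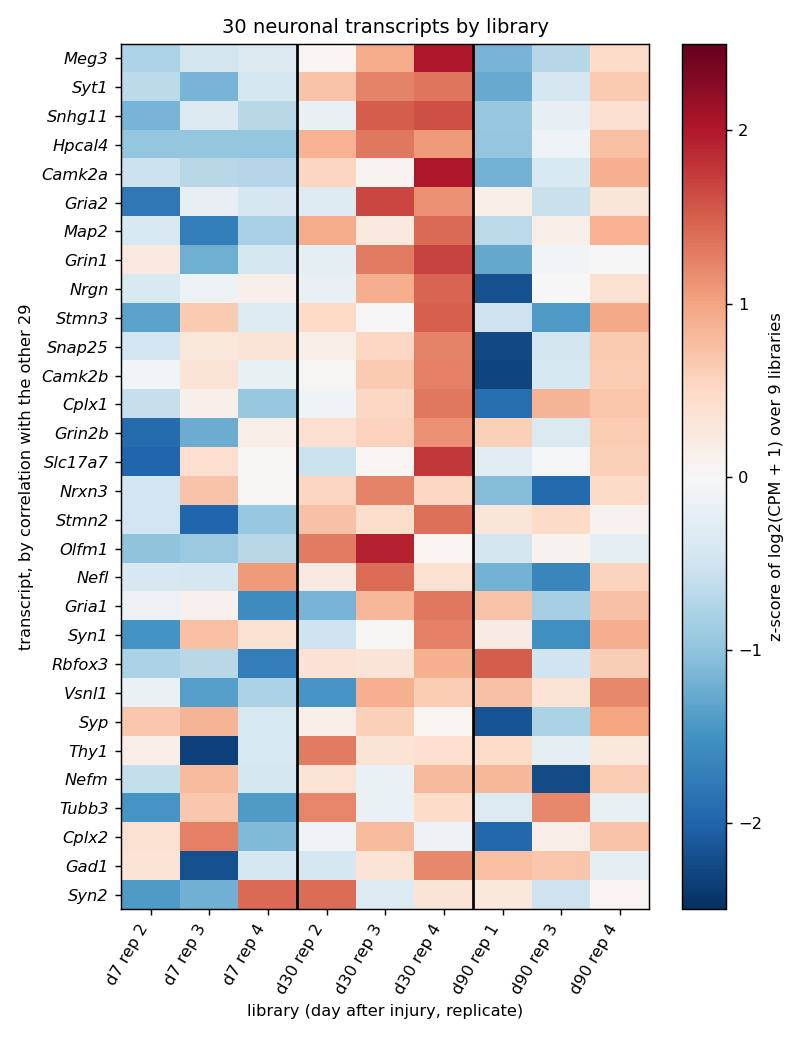
Level of each of the 30 transcripts in each library, as the z-score of log2(CPM + 1) over the 9 libraries, with red for higher and blue for lower. Rows run from the transcript most correlated with the other 29 (Meg3) to the least (Syn2). The day 30 columns, above all replicate 4, hold most of the red cells, and day 90 replicate 4 resembles them more than day 90 replicate 1 does.

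Other genes of neurons were listed by role from general knowledge, 205 genes in the table outside the 30, of which 186 were tested. With limma, 0 of the 186 passed the adjusted threshold in any of the 4 comparisons. Unadjusted, 25 were higher and 2 lower at day 30 than at day 7, against 3.56% and 2.68% of all genes tested. At day 90 against day 30, 3 were higher and 19 lower, against 1.59% and 3.44% of all genes tested. Single libraries moved these counts: leaving out day 30 replicate 4 gave 11 in place of 25, and leaving out day 7 replicate 2 gave 12. In place of 19, leaving out day 90 replicate 1 gave 7, day 30 replicate 4 gave 10 and day 90 replicate 4 gave 31. By edgeR they were 13 and 10, and by DESeq2 18 and 10. The median log2 difference was +0.52 for day 30 against day 7 with 144 of 186 above 0, and -0.47 for day 90 against day 30 with 42 above 0. The latter was -0.20 with 68 above 0 without day 90 replicate 1 and -0.28 with 57 above 0 without day 30 replicate 4. Of the 186, 119 had their highest mean at day 30, against 33.5% of all genes tested. In 6 of the 186 all 3 day 30 libraries lay above the other 6, against 1.42% of all genes tested. These lists too were chosen with earlier results known, so the distance from the background shares carries no further reading. The sum over the 205 moved less than that of the 30, 5261 ± 533, 6281 ± 445 and 5636 ± 823 CPM, 1.19-fold higher at day 30 than at day 7 and 1.11-fold higher than at day 90. Such a sum is weighted to the most abundant genes, whereas the median counts each gene alike.

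Differences between the lists were not tested, and their medians and sums did not rank them alike. For day 30 against day 7 the median over 30 tested presynaptic genes was +0.67, with 28 above 0, and over 12 genes of cortical excitatory neurons +0.88, with 11 above 0. Over 34 genes of the axon and cytoskeleton it was +0.61, and over 14 neuronal RNA-binding proteins and nuclear noncoding RNAs +0.49. In the axonal list Rtn1, a reticulon of the neuronal endoplasmic reticulum, stood at 79.2 ± 12.7, 163 ± 25.8 and 109 ± 26.6 CPM. Among excitatory neuron genes Chn1, a Rac GTPase-activating protein, stood at 14.03 ± 2.32, 26.7 ± 5.52 and 15.3 ± 7.56 CPM, highest at day 30.

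Postsynaptic genes had a median of +0.21, with Ppp3ca, the catalytic subunit of calcineurin, at 244 ± 37.2, 287 ± 42.9 and 257 ± 20.8 CPM. The inhibitory list had +0.29, channel genes +0.37, genes of neurons of particular regions +0.33, secretory granule and neuropeptide genes +0.38 and activity-induced genes +0.42. In 2 lists the sum went the other way from the median at day 30 against day 7. The regional list summed to 252 ± 50.5, 202 ± 22.6 and 251 ± 49.0 CPM, and the secretory granule and neuropeptide list to 96.4 ± 35.5, 94.6 ± 32.0 and 72.9 ± 3.53 CPM. The inhibitory list summed to 19.1 ± 6.81, 34.5 ± 11.7 and 28.9 ± 7.64 CPM, 1.80-fold higher at day 30 than at day 7, while the presynaptic sum was 1.17-fold and the postsynaptic sum 1.19-fold higher. In these lists Pvalb, a calcium buffer of fast-spiking interneurons, stood at 2.49 ± 2.15, 11.7 ± 6.21 and 5.99 ± 9.51 CPM, and Ppp1r1b, the striatal phosphoprotein DARPP-32, at 89.9 ± 72.9, 52.2 ± 23.1 and 129.9 ± 64.4 CPM. Pcsk2, a prohormone convertase, stood at 50.5 ± 36.2, 6.54 ± 4.23 and 7.25 ± 0.499 CPM, its highest mean at day 7. Syngr1, a vesicle protein also in the presynaptic list, stood at 513 ± 21.0, 456 ± 70.1 and 313 ± 127 CPM, without a day 30 maximum.

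Markers of other brain cells did not all move the same way. Myelin and oligodendrocyte markers, 15 genes, summed to 360.5 ± 32.9, 383 ± 48.1 and 313 ± 97.2 CPM, and astrocyte markers, 16 genes, to 663 ± 111, 683 ± 13.1 and 676 ± 169 CPM. Mbp, a main myelin protein gene, stood at 76.8 ± 20.6, 107 ± 9.73 and 77.5 ± 21.5 CPM. Oligodendrocyte precursor markers summed to 23.5 ± 2.95, 21.0 ± 2.47 and 8.54 ± 7.27 CPM, with Neu4 at 0 in every library. Endothelial and pericyte markers, 17 genes, summed to 4015 ± 890.4, 2652 ± 361 and 3211 ± 1821 CPM, with none of the 17 highest at day 30. Ependymal and choroid plexus markers, 10 genes, summed to 9521 ± 835, 8646 ± 1512 and 14732 ± 9287 CPM. Leukocyte markers, 13 genes, summed to 130.3 ± 80.6, 73.3 ± 15.9 and 81.6 ± 55.0 CPM, with the B cell genes Cd79a and Ms4a1 at 0 in every library, and red cell genes, 5 genes, to 374 ± 135, 467 ± 67.5 and 462 ± 185 CPM.

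Set against the mean z-score of the 30 over the 9 libraries, the summed other neuronal genes had r = 0.92 and rho = 0.97, oligodendrocyte markers r = 0.65, microglial markers r = 0.64 and astrocyte markers r = -0.08. Endothelial and pericyte markers had r = -0.73, and ependymal and choroid plexus markers r = -0.54. Without day 90 replicate 1 these were 0.91 for other neuronal genes, 0.63, 0.60, 0.21, -0.68 and -0.67 in the same order. Within the other neuronal genes the lists differed. Over the 9 libraries r was 0.83 for axonal, 0.82 for excitatory, 0.75 for RNA-binding, 0.71 for postsynaptic and 0.68 for presynaptic genes. It was 0.61 for channel, 0.59 for inhibitory, 0.35 for activity-induced and 0.15 for granule genes, and -0.66 for regional genes. The number of genes with a read in a library had r = 0.73 and the number of reads r = 0.44. All values share the same 9 libraries and the same total of CPM, of which the 30 made up 0.137% to 0.396%, and are not independent of each other. The part of these lists and of library complexity in the day 30 level of the neuronal transcripts was not tested.

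Of 10113 other genes with a mean of at least 5 CPM, the 12 whose pattern was most like that of the 30 included Sun2 (r = 0.97 over the 9 libraries), Tor1b, Btbd9, Usp36, Map3k14, Mapt, Laptm5, Map2k3, Wdr43, Pex6 and Zfp110 (r = 0.85). Among the 12, 1, Mapt, which encodes the axonal microtubule protein tau, was in the neuronal lists. Sun2, a protein of the inner nuclear membrane that couples the nucleus to the cytoskeleton, measured 163, 201 and 198 CPM at day 7, 212, 290.0 and 325 CPM at day 30, and 179.9, 189 and 277 CPM at day 90. Mapt measured 30.0, 54.4 and 58.6 CPM at day 7, 70.2, 88.1 and 102 CPM at day 30, and 40.9, 63.1 and 109 CPM at day 90. Laptm5, a lysosomal membrane protein of blood and immune cells, measured 2450.4, 2569 and 2338 CPM at day 7, 2961, 2914 and 3262 CPM at day 30, and 2573, 2797 and 2948 CPM at day 90. For Sun2 day 30 replicates 3 and 4 were highest, followed by day 90 replicate 4, the same order as for Meg3. For Mapt the highest was day 90 replicate 4.

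Several of these levels carry a limit from counting. The last 500 bases of Meg3, Syp, Grin1, Nefl, Tubb3 and Syn1, where reads of a 3′ library fall, overlap another gene in GENCODE M21: Gm26906, Gm14703, Grin1os, Nefm, Gm20388 and Araf. Reads of those pairs may have been shared or dropped. For Tubb3, whose overlapping gene lies on the same strand, this holds whatever the strand setting of the counting. For the other pairs, on opposite strands, it depends on that setting, which is not given in the sources used here. Each transcript gives about 1 fragment in a 3′ library, so CPM was not divided by length.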

How the data were processed

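RNA from sorted cells was made into QuantSeq 3′ mRNA libraries and sequenced on a NextSeq 500, per the labels' protocols. Per the submitters' processing notes the authors' tools were bcl2fastq, STAR and HTSeq, and the build was mm10. Versions, gene annotation and strandedness: not given in the sources used here. CPM were deposited by the authors for 49671 Ensembl genes, each library summing to 1000000. Dividing by the smallest step gave whole reads for 100.0% of values above 0 (relative tolerance 1e-06), 7210985 to 12965926 per library. The labels do not say whether libraries of a day came from separate mice, so p-values measure the spread between these libraries, which may be technical. Floors of 3 reads cover counting error only, while SD and SE measure the spread between libraries. Positions came from GENCODE M21 (GRCm38).

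Values were tested as log2(CPM + 1) with R 4.3.3 and limma 3.58.1 (1 mean per day over 9 libraries, mean trend, two-sided, Benjamini-Hochberg adjustment over the 15041 genes reaching 1 CPM in 3 or more libraries, threshold 0.05). edgeR 4.0.16 (quasi-likelihood) and DESeq2 1.42.0 on the recovered reads were alternatives, as were pseudocounts, filters, scalings and leaving out each library. The fits were also run on simulated reads with known changes at day 30. Those reads held no outlying library, and the shares recovered are not given, so no accuracy is claimed from them. The 30 genes and all lists were chosen with earlier results of these data known. Named genes were the 30, up to 4 of the most abundant tested genes of each list, and the 12 genes most correlated with the 30. Lists covered presynaptic, postsynaptic, axonal, RNA-binding, inhibitory, excitatory, regional, granule, channel and activity-induced neuronal genes, and microglia, astrocytes, oligodendrocytes and their precursors, vessels, ependyma and choroid plexus, leukocytes and red cells. Where a symbol had 2 rows the more abundant was used; Scn2a had none. Some genes that this rule names are not reported here, and sequence from chromosome 18 is not printed.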

Additional observations from a re-analysis of the deposited data

How the results depend on the processing

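The counts of calls moved with the method, and few of the 30 were ever among them. For day 30 against day 7 (0 genes in the main fit), DESeq2 called 30 genes, a pseudocount of 5 CPM 3, quantile normalization 2, and leaving out 1 library 0 to 8; of the 30, DESeq2 called 1 and leaving out 1 library gave 0 to 1, each time Hpcal4, and of the other neuronal genes DESeq2 called 3. For day 90 against day 7 (37 genes), DESeq2 called 129, edgeR 22, no filter 1, no mean trend 0, only the days compared 18, and leaving out 1 library 18 to 62; DESeq2 called 1 of the 30 and 4 other neuronal genes, and leaving out 1 library gave 0 to 1 of the latter. For day 90 against day 30 (8 genes), DESeq2 called 27, no filter 0, no mean trend 0, only the days compared 5, and leaving out 1 library 4 to 18, with 0 to 1 of the 30 and 0 to 1 other neuronal genes. For day 30 against the mean of days 7 and 90, DESeq2 called 10 genes, 1 of the 30 and 1 other neuronal gene. The cause of these differences was not tested. The labels do not say whether replicate numbers pair libraries across days. Deviations from the day means of same-numbered libraries correlated at -0.04 to 0.04, and 2 of 8 libraries were closest to their own number. With so few libraries this does not settle the pairing. With a replicate block, day 30 against day 7 gave 10 genes and 1 of the 30. Replicate 1, present at day 90 alone, then had a term of its own. The 26 transcripts highest at day 30 became 2 when all 3 libraries had to exceed the other 6, and ranged from 21 to 28 on leaving out 1 library. The ratio of sums ranged from 1.54 to 2.11 against day 7 and from 1.40 to 2.03 against day 90. Of 2470 single differences under alternatives, 12 moved by at least the gene's SD of log2(CPM + 1) between libraries of the same day. That margin is wide, with a median of 0.72 over the 30, and signs could turn within it. Cplx2 at day 30 against day 7 changed sign in 7 of 21 alternatives. Rbfox3 and Gad1 at day 90 against day 30 did so in 6 of 21 each, and Syt1 and Meg3 at day 30 against day 7 in 0 of 21. Low counts and 3 libraries per day limit the rarer transcripts.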

Other observations

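The 12 genes whose levels ran most nearly opposite to the 30 neuronal transcripts over the 9 libraries were Tmem107, Dynlrb2, Cd24a, Ufl1, Rsad2, Mast4, Syap1, Wwtr1, Foxj1, Zbtb40, Emp3 and Lef1. Those described here were chosen after their values were seen. Tmem107, a protein of the ciliary transition zone, had r = -0.97 with the mean z-score of the 30 and measured 20.0, 18.0 and 23.2 CPM at day 7, 8.72, 4.04 and 2.89 CPM at day 30, and 24.3, 12.0 and 6.77 CPM at day 90. Dynlrb2, a dynein light chain, had r = -0.95 and measured 37.5, 21.1 and 19.9 CPM at day 7, 7.56, 7.08 and 2.80 CPM at day 30, and 43.4, 14.5 and 4.90 CPM at day 90. Foxj1, the transcription factor of motile cilia and of ependyma, had r = -0.90 and measured 75.5, 44.4 and 40.8 CPM at day 7, 22.5, 17.4 and 15.4 CPM at day 30, and 56.0, 25.0 and 15.7 CPM at day 90. In these 3 genes the day 30 libraries lay below the day 7 libraries, and day 90 replicate 1 stood well above day 90 replicate 4. The day 30 libraries also lay below day 7 in Cd24a, Ufl1, Mast4, Syap1 and Lef1, and overlapped it in Rsad2, Wwtr1, Zbtb40 and Emp3. The 12 were selected for running opposite to the 30, so this order is partly built in. No share over all genes is given beside it. Cd24a, a surface glycoprotein, had r = -0.93 and means of 19.5 ± 2.68, 2.41 ± 2.30 and 13.1 ± 10.5 CPM. These correlations are over 9 libraries that share 1 total, and what they rest on was not tested.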
